A study of Mus musculus with 2 samples.

Results

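The genes described here are 35 heat shock chaperones and genes of the unfolded protein response, taken by symbol from 27179 gene rows, and all 35 were found in both libraries. The cells were ILC2 progenitors (ILC2p), which live in bone marrow and give rise to group 2 innate lymphoid cells (ILC2). They were sorted by flow cytometry from wild-type C57BL/6 mice aged 8 weeks. There was 1 group of 2 libraries, each from 8 mice pooled and 100 ng of total RNA, and no treated, mutant or other comparison group was part of the data. Pool 1 and pool 2 are named in accession order only. Pooling hides the spread between single mice, and neither the sorting antibodies nor the animals' sex are stated in the sources used here.

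Chaperones of the Hsp70 family hold unfolded protein in cycles of ATP binding, started by J proteins and reset by nucleotide exchange factors, while Hsp90 proteins finish the folding of kinases and receptors. In the cytosol the heat shock factor Hsf1 raises these genes when unfolded protein builds up. In the endoplasmic reticulum (ER) the sensors Ern1 (IRE1), Eif2ak3 (PERK) and Atf6 do the same for the ER's own chaperones and other response genes. They act through Xbp1, Atf4 and Ddit3 and the cleaved form of Atf6. Secretory cells keep the ER arm active, and ILC2 secrete cytokines once stimulated.

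The libraries held 20216146 reads in pool 1 and 19834586 in pool 2, and levels are given as RPKM, reads scaled to gene length and library total, in which 3 reads of a 1 kb gene come to 0.148 and 0.151. All 9 ILC2 markers listed (such as Gata3 and Il7r) were at 1 RPKM or more in both pools and summed to 3511 and 3517 RPKM. The near-equal sums hide gaps of single markers: 4 were higher in pool 1 and 5 in pool 2. Of these, 1 was 2.48-fold higher in pool 1 and 1 was at least 1.5-fold higher in pool 2. Markers of other marrow cells were present and differed between the pools. Neutrophil markers (8 of 8 detected) summed to 1009 RPKM in pool 1 and 2415 in pool 2, erythroid markers (7 of 7) to 922 and 2626, eosinophil markers (5 of 7) to 41.3 and 593, mast cell and basophil markers (4 of 6) to 111 and 104, and B and plasma cell markers (7 of 13) to 681 and 477. Of the 7 detected B and plasma cell markers, 5 were higher in pool 2 and 2 in pool 1, and Ighm was the highest of the list. The list's median was 1.12 RPKM in pool 1 and 2.39 in pool 2, opposite in direction to the sum. Only Tnfrsf17 of the plasma cell genes was listed at 0, in pool 2. The part of these cells in the values below was not tested, and in bulk RNA fewer cells of a type and less RNA per cell cannot be told apart.

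Of the 35 genes, 33 were detected, meaning 1 RPKM or more in both pools, against 40.5% of all genes in the files. Their median level was 4.88 on the log2(RPKM + 0.1) scale, 1.01 above the median of all 11013 detected genes. Together they made up 0.487% of the summed RPKM in pool 1 and 0.495% in pool 2. Levels ran from 675 RPKM for Hsp90ab1 to under 0.1 for Hspb1. The 3 most abundant, Hsp90ab1, Hspa5 and Hsp90b1, held 46.6% of the genes' sum in pool 1 and 45.3% in pool 2. By place, the median of the 12 ER genes was 2.004 (log2) above that of all detected genes, that of the 3 mitochondrial chaperones 2.14 above, and that of the 7 sensors and transcription factors 0.60 above. The 13 cytosolic and nuclear genes lay 0.16 below it, but 0.62 above without the 2 that were not detected and 1.27 above without the 7 that share much of their sequence with other genes.

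**Figure D1:**
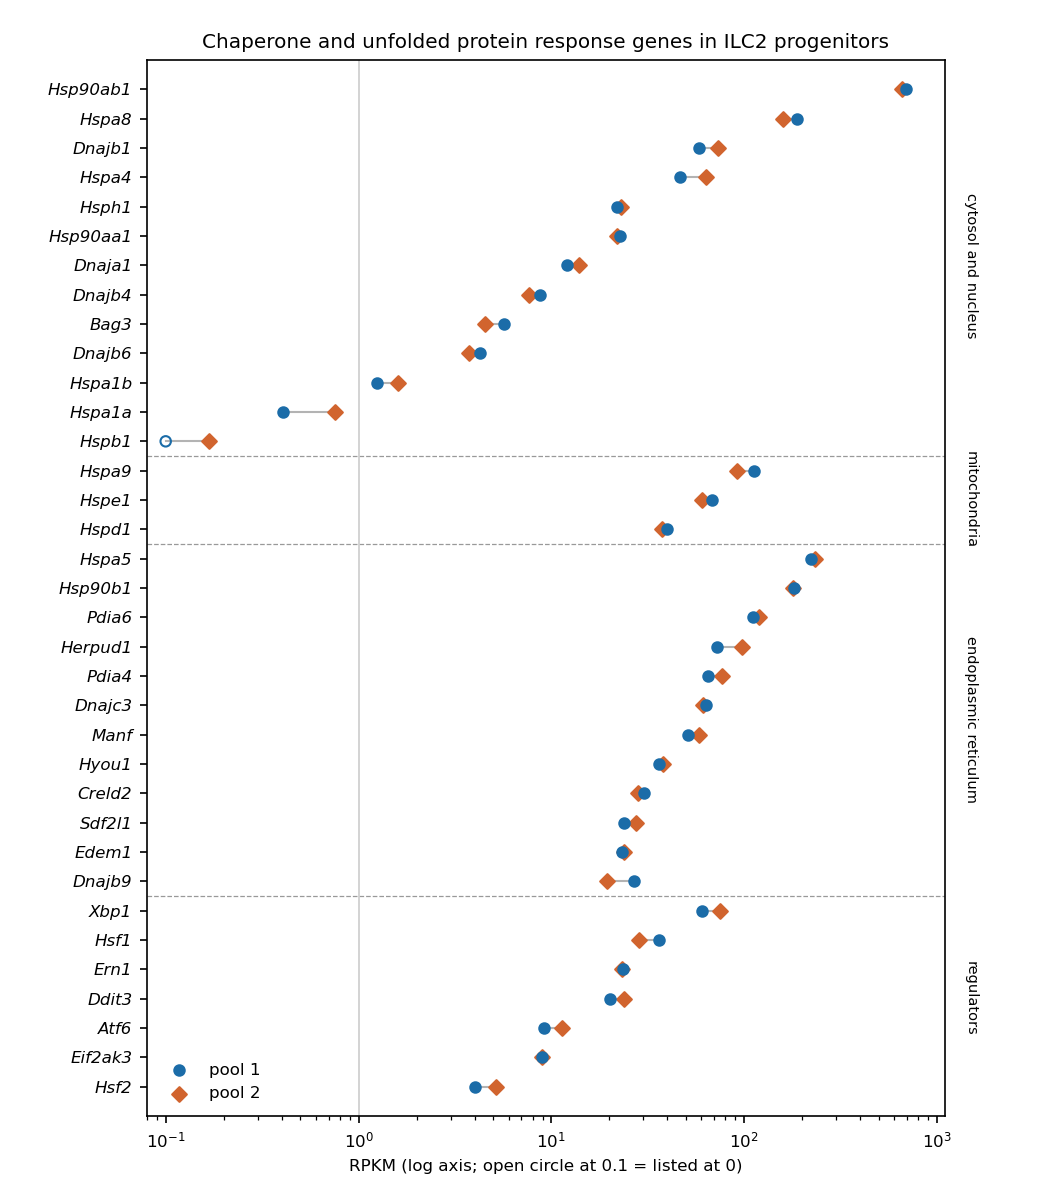
RPKM of the 35 genes on a log axis, with circles for pool 1 and diamonds for pool 2, grouped by cell compartment. Hsp90ab1 sits near 675 RPKM, all 12 ER genes lie at 19.5 RPKM or more in both pools, and Hspa1b, Hspa1a and Hspb1 are the 3 lowest.

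Among the cytosolic chaperones, the constitutive forms were high. Hsp90ab1, the constitutive Hsp90 (Entrez ID 15516), is encoded on chromosome 17 from 45567778 to 45573261 of mm10, and its level was 693 RPKM in pool 1 and 658 in pool 2 (675 ± 24.6, SD, n = 2), rank 66 among all genes. Hsp90aa1, the stress-inducible Hsp90, was at 22.7 and 21.95 RPKM, so that the ratio of the pair was 30.6 and 30.0 (30.3 ± 0.42). Hspa8, the constitutive Hsp70, was at 187 and 159.7 RPKM in pools 1 and 2. The order of the 3 genes was the same in both pools.

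The stress-inducible Hsp70 genes were near the bottom. Hspa1a (Entrez ID 193740, chromosome 17, 34969359 to 34972156) was at 0.407 and 0.757 RPKM in pools 1 and 2, from 23 and 42 reads. Hspa1b, its neighbour (Entrez ID 15511, chromosome 17, 34956429 to 34959238), was at 1.25 and 1.60 RPKM, from 71 and 89 reads. Hspa8 was therefore 113 times the sum of the pair in pool 1 and 67.9 times in pool 2. The counting interval of the ratio between the pools ran from 1.09 to 3.24 for Hspa1a and from 0.925 to 1.77 for Hspa1b. Hspb1, a small heat shock protein that keeps unfolded proteins from clumping, was listed at 0 in pool 1 and had 3 reads (0.167 RPKM) in pool 2, no more than the 3 reads used as the floor.

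Hspa1a and Hspa1b are near-identical copies, and the sequences show how little tells them apart. Of the 250 bases before each start site in RefSeq's GRCm38.p6 windows, 247 were the same in both genes. The last 100 bases before the start sites, at chr17:34972157-34972256 and chr17:34959239-34959338 on the minus strand, are printed 5′ to 3′ with the 1 base that differs in capitals.
Hspa1a: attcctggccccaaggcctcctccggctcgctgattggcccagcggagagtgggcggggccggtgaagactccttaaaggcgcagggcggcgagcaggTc
Hspa1b: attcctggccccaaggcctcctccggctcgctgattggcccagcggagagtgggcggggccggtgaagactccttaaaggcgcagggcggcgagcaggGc
The likeness continues in the transcripts: of all 50-base windows in GENCODE transcripts of Hspa1a, 58.8% also occur in Hspa1b, and of those of Hspa1b, 62.3% occur in Hspa1a. Reads from such windows have no single place, so each value of the pair is uncertain.

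The same count over all 35 genes ran from 0% to 66.3%, and 11 genes lay above 0 and under 20%. For 15 genes, among them Hspa5, Xbp1, Hsf1, Dnajc3 and Herpud1, no 50-base window occurred in transcripts of another gene. For 9 genes at least 20% did: Hspa1a (66.3%), Hspa1b (62.3%), Hspb1 (50.1%), Hsp90aa1 (47.5%), Hspd1 (42.1%), Hspa8 (39.4%), Hspe1 (22.8%), Dnajb6 (21.0%) and Dnaja1 (20.6%). Their leading partners were mostly processed pseudogenes, copies of spliced mRNA back in the genome: Gm12346 held 41.8% of the windows of Hsp90aa1, Hspd1-ps3 38.0% of those of Hspd1, Gm15459 34.6% of those of Hspa8 and Hsp25-ps1 48.8% of those of Hspb1. Of 33 pseudogenes that held 1% or more of a gene's windows, 2 have a row under that symbol in the files. The 3 lowest of the 35 genes were also the 3 with the largest share of shared windows. The part of this sharing in the values of the 9 genes was not tested. The same holds for ratios that use them, such as Hsp90ab1 to Hsp90aa1, Hspa8 to Hspa1a and Hspa1b, and Hspe1 to Hspd1. The read length and the treatment of reads with several matches are not known here.

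**Figure D2:**
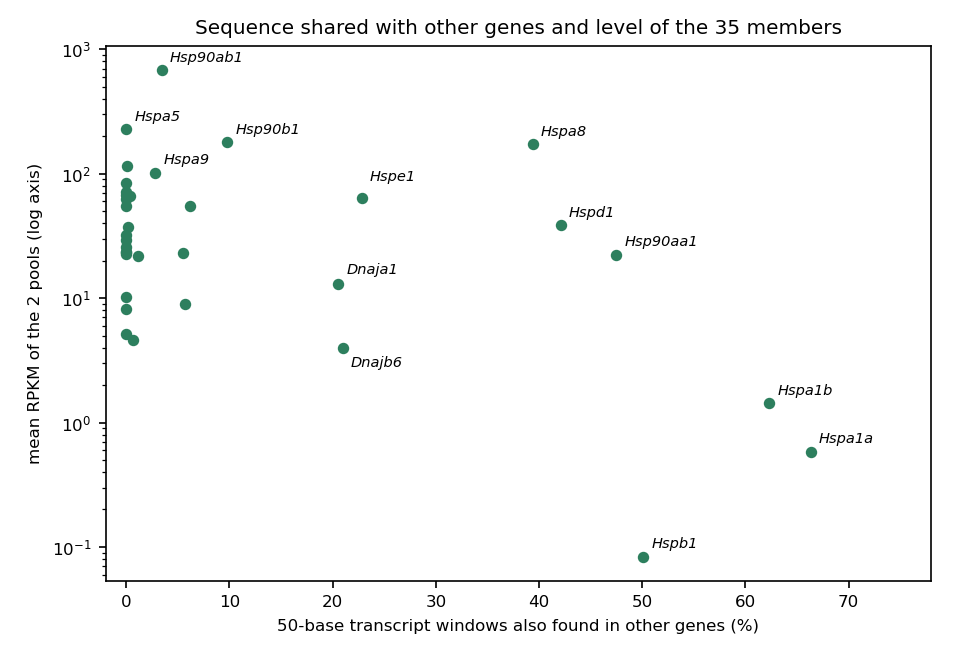
Mean RPKM of the 2 pools (log axis) against the percentage of a gene's 50-base transcript windows that also occur in transcripts of other genes, 1 point for each of the 35 genes. Hspa1a, Hspa1b and Hspb1 lie at the lower right with 50.1% to 66.3%, while Hsp90ab1 (3.44%) and Hspa5 (0%) lie at the upper left.

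The nucleotide exchange factors of the Hsp110 branch stood at middle levels. Hspa4 (Entrez ID 15525, chromosome 11, 53259814 to 53300479) stood at 46.3 and 63.8 RPKM in pools 1 and 2, and pool 2 exceeded pool 1 by 1.38 times (95% interval from counting error 1.32 to 1.43). Hsph1 was at 22.02 and 22.9 RPKM, with an interval that took in equality (0.968 to 1.12). Bag3, a co-chaperone that links Hsp70 to autophagy, was at 5.68 and 4.55 RPKM. Hspa4 was thus the one of the 3 that was higher in pool 2 beyond counting error, while Bag3 was higher in pool 1 (0.672 to 0.953 for pool 2 over pool 1).

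The J proteins, which pass clients to Hsp70, were led by Dnajb1. Its 58.1 RPKM in pool 1 and 73.2 in pool 2 were 1.26-fold apart (1.198 to 1.33), and it stood 6.66 and 9.58 times above Dnajb4. Dnaja1 was at 12.1 and 13.9 RPKM, Dnajb4 at 8.72 and 7.65, and Dnajb6, which suppresses aggregation, at 4.24 and 3.72. The values of Dnaja1 and Dnajb6 carry the sequence caveat above. Hspa8 exceeded Dnajb1 by 3.23 times in pool 1 and 2.18 times in pool 2.

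The mitochondrial chaperones fold proteins after import. Hspa9, the mitochondrial Hsp70, was at 112 and 91.97 RPKM in pools 1 and 2. Hspd1 (Hsp60), the folding chamber, was at 39.9 and 37.5 RPKM, and Hspe1 (Hsp10), its lid, at 67.9 and 60.7. All 3 were slightly higher in pool 1, by 1.22-fold, 1.06-fold and 1.12-fold, and the interval of Hspd1 took in equality (0.881 to 1.005 for pool 2 over pool 1). The ratio of Hspe1 to Hspd1 was 1.70 and 1.62.

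Hspd1 and Hspe1 lie head to head on chromosome 1 (55077833 to 55088243 and 55088148 to 55091317). RefSeq's windows give 2 starts of Hspd1, 216 and 95 bases from that of Hspe1. A heat shock element lies between the starts for the first and inside Hspd1 for the second. It is the site that heat shock factors bind as alternating 5-base units. The motif searched, on both strands, was GAA, any 2 bases, TTC, any 2 bases and GAA, which 0.662% of 27025 genes with a RefSeq window (250 bases before to 50 after the start, GRCm38.p6) hold. Of the 35 genes, 27 matched a window and 4 of these held the motif, with Hspd1 and Hspe1 at the same site. The other 8, not searched, were Hspa8, Hspa9, Hsp90aa1, Hsp90ab1, Hsf1, Atf6, Hyou1 and Manf. The genes were grouped here for their known role, so the count is a description. In Hsph1 the match lies after the start, at base 16 or 37 depending on the window. The matches are printed with 5 bases on each side and the motif's fixed letters in capitals, and in the Hspe1 line 2 overlapping matches are joined.
Hspe1 and Hspd1, Hspe1 strand, chr1:55088054-55088081: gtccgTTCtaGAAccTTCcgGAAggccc
Dnajb6, chr5:29735847-29735869: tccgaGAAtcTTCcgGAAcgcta
Hsph1, minus strand, chr5:149636283-149636305: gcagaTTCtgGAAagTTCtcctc
Mean levels of these 4 genes ran from 3.98 RPKM (Dnajb6) to 64.3 (Hspe1), so the motif did not go with one level. The windows of Hspa1a, Hspa1b, Hspb1, Bag3 and Dnajb1 held 0 matches, which says only that these exact letters are not there.

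The 6 ER chaperones ranged from 23.2 to 228 RPKM in mean level. Hspa5 (BiP), the ER Hsp70 that also holds the stress sensors inactive (Entrez ID 14828, chromosome 2, 34772090 to 34776529), was at 222 and 234 RPKM in pools 1 and 2 (228 ± 8.29). Hsp90b1 (Grp94), the ER Hsp90, was at 181 and 178 RPKM. Their ratio was 1.22 and 1.31, and Hspa5 exceeded cytosolic Hspa8 by 1.18 and 1.46 times. Hyou1 (Grp170), which exchanges nucleotide on BiP, was at 36.0 and 38.1 RPKM, or 6.17 and 6.13 times below Hspa5.

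The ER J proteins followed. Dnajc3, an ER J protein, was at 63.6 and 60.9 RPKM in pools 1 and 2. Dnajb9, a J protein that acts with BiP on the sensor IRE1, was at 26.9 and 19.5 RPKM. Sdf2l1, a partner of ER J proteins, was at 23.9 and 27.6 RPKM. Dnajb9 had the largest gap toward pool 1 of the 33 detected genes, at 1.38-fold (1.25 to 1.52).

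The enzymes and secreted proteins of the response lay between 23.4 and 119 RPKM. The disulfide isomerase Pdia6 was at 111 and 119 RPKM in pools 1 and 2, and Pdia4 at 64.9 and 76.7. Manf, a small ER protein that cells secrete under ER stress, was at 50.9 and 58.3 RPKM, and Creld2 at 30.3 and 28.3. In ER-associated degradation, Herpud1, a membrane scaffold of the machinery, was at 72.2 and 97.7 RPKM (1.35-fold, 1.29 to 1.42), and Edem1, which hands over misfolded glycoproteins, at 23.4 and 23.9. The lowest ER value of either pool was the 19.5 RPKM of Dnajb9.

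The promoters of 6 of these ER genes held the ER stress response element (ERSE), which NF-Y and Atf6 bind, or its shorter form ERSE-II. The ERSE, searched on both strands as CCAAT, any 9 bases and CCACG, was found in 5 of the 27 genes with a window and in 0.137% of all genes, and ERSE-II, as ATTGG, any 1 base and CCACG, in 1 of the 27 and 0.0444%. The XBP1 core TGACGTGG was in 0 of the 27 (0.714% of all genes), and the C/EBP-ATF element TTGCATCA was in Herpud1 alone (1.03%). The genes were grouped here for their known role in the response, so these counts are a description. The matches follow on the gene's own strand, with the fixed letters in capitals.
Hspa5, chr2:34772020-34772048: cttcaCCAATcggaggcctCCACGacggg
Hsp90b1, far, minus strand, chr10:86705633-86705661: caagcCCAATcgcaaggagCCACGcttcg
Hsp90b1, near, minus strand, chr10:86705528-86705556: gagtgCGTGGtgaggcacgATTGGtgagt
Dnajc3, chr14:118937822-118937850: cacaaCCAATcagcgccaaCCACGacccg
Pdia6, chr12:17266486-17266514: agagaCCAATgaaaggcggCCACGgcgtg
Creld2, chr15:88819515-88819543: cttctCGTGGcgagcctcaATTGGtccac
Herpud1, ERSE-II, chr8:94386372-94386392: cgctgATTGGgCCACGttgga
Herpud1, C/EBP-ATF element, chr8:94386312-94386329: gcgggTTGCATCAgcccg
The near match of Hsp90b1 and that of Creld2 lie in the reverse direction. The 6 genes with an ERSE or ERSE-II had mean levels from 29.3 RPKM (Creld2) to 228 (Hspa5). The 4 ER genes with a window and neither motif, Dnajb9, Sdf2l1, Pdia4 and Edem1, ran from 23.2 to 70.8 RPKM, so the ranges overlapped.

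All 3 sensors of the unfolded protein response were detected. Ern1, the kinase and RNase that splices Xbp1 mRNA, was the highest, at 23.6 and 23.3 RPKM in pools 1 and 2. Atf6, a membrane-bound factor that is cut free in the Golgi, was at 9.21 and 11.3 RPKM, and Eif2ak3, the kinase that slows translation, at 8.90 and 8.96. Ern1 exceeded Eif2ak3 by 2.65 and 2.60 times and Atf6 by 2.56 and 2.06 times, with no overlap between pools.

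Of the transcription factors, Xbp1, the target of IRE1 (Entrez ID 22433, chromosome 11, 5520641 to 5525993), was at 60.2 and 74.7 RPKM in pools 1 and 2 (1.24-fold, 1.17 to 1.31). Ddit3 (CHOP), which promotes cell death when ER stress lasts, was at 20.05 and 23.9 RPKM. Gene-level values do not separate spliced from unspliced Xbp1. Hsf1, the main heat shock factor, was at 36.3 and 28.4 RPKM, and Hsf2 at 4.04 and 5.17. These 2 lay on opposite sides, Hsf1 1.28-fold higher in pool 1 and Hsf2 1.28-fold higher in pool 2, and their ratio was 8.98 and 5.49.

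In the order of mean levels, many neighbours were not apart: 20 of 34 adjacent pairs had ranges over the pools that overlapped. From Pdia6 at 115 RPKM down to Manf at 54.6, each gene overlapped the next. Hsp90ab1 and Hspa5 at the top, and Dnajb6, Hspa1b and Hspa1a at the bottom, each lay clear of the next lower gene in both pools.

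The pools differed little in these genes. None of the 33 detected genes was 2-fold apart (2.56% of all detected genes were), and none was 1.5-fold apart (8.45% of all detected genes, and 4.66% of those at 5 RPKM or more in both pools, where 29 of the 35 lay). Of all detected genes, 5.86% were 1.5-fold higher in pool 2 and 2.6% in pool 1. With backgrounds this low, a count of 0 among 33 genes is close to them. The largest gap among the 33 was 1.38-fold. The median fold between the pools was 1.14 for these genes and 1.12 for all detected genes, and 26 of 33 lay within 1.25-fold (78.8%, against 74.5%). At 5 RPKM or more in both pools the median folds were 1.14 and 1.11, and 82.8% against 81.0% lay within 1.25-fold. In direction, 18 were higher in pool 2 and 15 in pool 1, where 57.3% of all detected genes were higher in pool 2 and the other 42.7% in pool 1. Relative to the median ratio of all detected genes the split was 16 to 17, with Eif2ak3 and Edem1 on the other side. The median log2 ratio of pool 2 to pool 1 was 0.03, beside 0.04 for all detected genes. The counting interval left out equality for 23 of the 33 genes and for 54.4% of all detected genes, and with 1 library a side these gaps have no replicate check.

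The small gaps went by compartment only in part. The 3 mitochondrial genes were higher in pool 1, 8 of 12 ER genes and 5 of 7 regulators in pool 2 (7 and 4 relative to the median ratio of all detected genes), and the 11 detected cytosolic genes split 6 to 5. Among detected genes the largest toward pool 2 were Hspa4, Herpud1, Hsf2, Dnajb1 and Hspa1b, and toward pool 1 Dnajb9, Hsf1, Bag3, Hspa9 and Hspa8. The interval of Hspa1b took in equality. Hspa1a, which was not detected, was 1.86-fold higher in pool 2 (1.09 to 3.24), from 23 and 42 reads. Neutrophil, erythroid and eosinophil markers were also higher in pool 2, as were 5 of the 7 detected B and plasma cell markers, though the sum of the latter was higher in pool 1. Mast cell and basophil markers leaned the other way. Of the 4 detected, 3 had their larger value in pool 1 and only Cpa3 in pool 2. The median log2 ratio of pool 2 to pool 1 for that list was -0.52. The part of all these cells in the gaps was not tested.

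The immediate early genes, which stimulated or handled cells switch on within minutes, give a contrast. All 12 listed were at least 2-fold higher in pool 1 (0.962% of all detected genes were), with Zfp36 highest at 2786 RPKM against 120.3, Fos at 2441 RPKM against 49.6 Egr1 at 348 against 3.81 and Atf3 lowest. The list's median was 430 RPKM in pool 1 and 44.6 in pool 2. The other 7, Fosb, Dusp1, Jun, Junb, Nr4a1, Ier2 and Jund, were 2.91-fold to 36.1-fold higher in pool 1, and Btg2 had the smallest gap at 2.43-fold. Of the 11 detected cytosolic chaperone genes, 6 were higher in pool 1 and 5 in pool 2, and none was 1.5-fold apart. The part of handling or of any other difference between the pools was not tested.

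**Figure D3:**
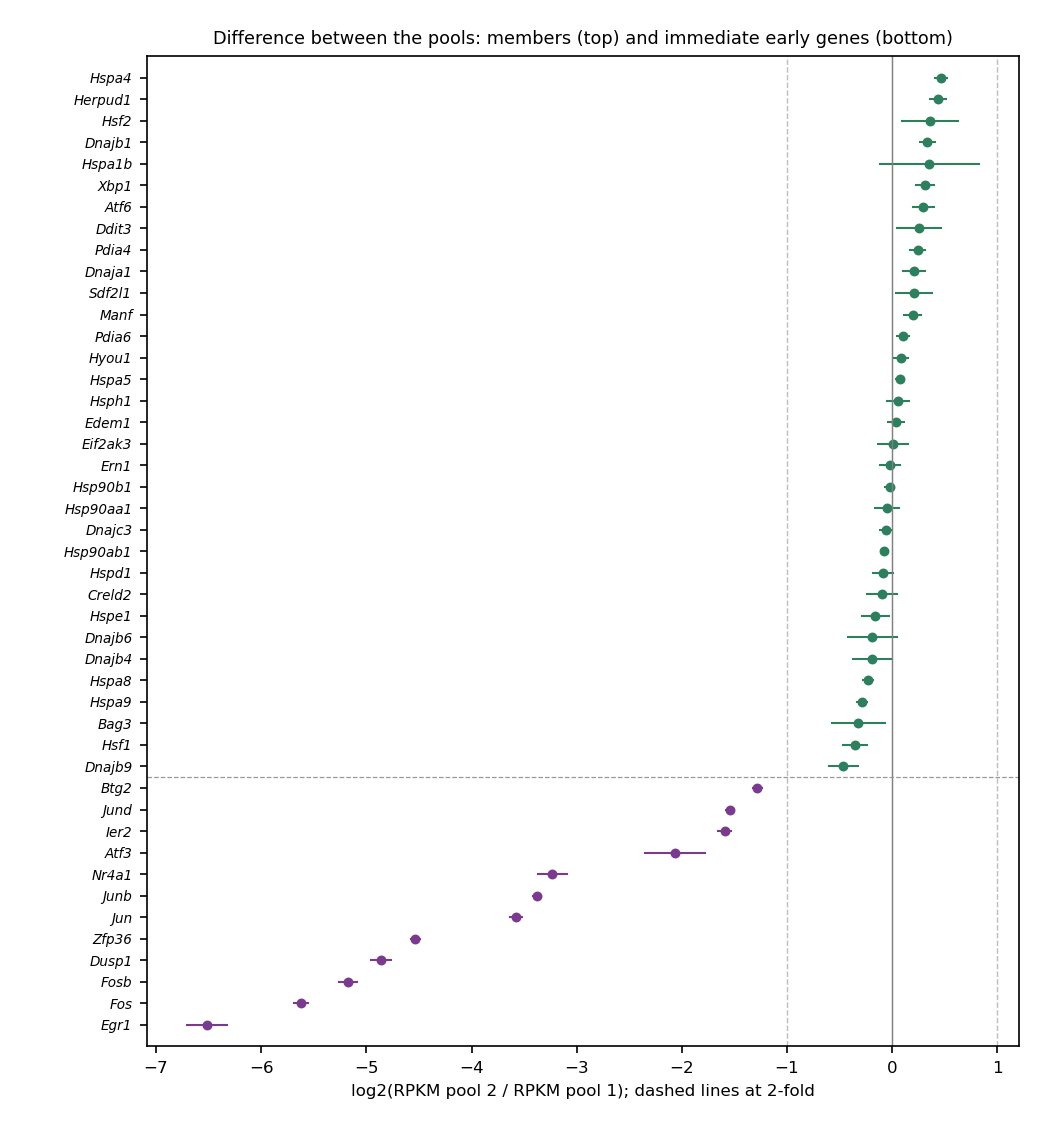
log2 ratio of RPKM in pool 2 to pool 1 with 95% counting intervals, for the 33 detected genes (top) and 12 immediate early genes (bottom). All 33 lie within 1.38-fold of equality, whereas the immediate early genes run from Btg2 to Egr1 beyond the 2-fold line toward pool 1.

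Other genes of the same systems numbered 97 on 7 lists. Of these, 89 were detected, where 40.5% of all genes in the files were, a share that stands beside each list below. Among the 89, 4 were at least 2-fold higher in pool 1 (0.962% of all detected genes were) and 0 in pool 2 (1.6%). The median log2 ratio of the 89 was 0.00. All 14 genes of the CCT chaperonin, which folds actin and tubulin, and of prefoldin were detected, from Pfdn4 at 17.5 RPKM to Pfdn5 at 305. None of the 14 was 1.5-fold apart, where 8.45% of all detected genes were. Of 21 genes listed as co-chaperones of Hsp70 and Hsp90 or their relatives, 17 were detected. Cdc37, which loads kinases onto Hsp90, was highest at 133 ± 7.18 RPKM, and Hspb8 was listed at 0 in both pools. The list also held Hsp70 forms, small heat shock genes, the heat shock factor Hsf4 and Serpinh1. Those not detected were Hspb8, Cryab, Hsf4 and Serpinh1. Hspa2, an Hsp70 best known from the testis, was the exception, at 2.93 and 1.03 RPKM in pools 1 and 2 (2.84-fold higher in pool 1, 2.08 to 3.93).

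Further ER folding and degradation genes included some of the most abundant. Pdia3, the disulfide isomerase of glycoproteins and MHC class I, led 15 folding genes at 435 ± 19.3 RPKM, above every ER gene of the 35, and Pdia5 was lowest at 0.930 and 1.28 RPKM. Of 14 further degradation genes, 13 were detected (40.5% of all genes in the files were). They ran from Os9, an ER lectin, at 91.3 ± 2.38 RPKM, and the lowest of the 14 was Derl3 at 0.555 and 1.02. All 10 genes that process or relay Atf6 and IRE1 signals were detected, with D10Wsu52e (Rtcb), the ligase that joins spliced Xbp1, highest at 153 ± 10.2 RPKM and Wfs1 lowest at 2.17 ± 0.158. All 9 further mitochondrial chaperones and proteases were detected, from Grpel2 at 7.06 RPKM to Trap1, the mitochondrial Hsp90, at 48.9. None of these 4 lists held a detected gene that was 1.5-fold apart, where 8.45% of all detected genes were. For lists this short, a count of 0 is close to that share.

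The PERK arm, the branch that Eif2ak3 starts, held 3 of the 4 genes that were 2-fold apart. Of its 14 genes, 12 were detected (40.5% of all genes in the files were), and 3 of these were at least 2-fold higher in pool 1, against 0.962% of all detected genes. Ppp1r15a (GADD34), which reverses the block of translation, was at 65.3 and 16.0 RPKM in pools 1 and 2 (4.09-fold, 3.77 to 4.43). Cebpb was at 36.2 and 8.51 RPKM (4.25-fold, 3.70 to 4.89), and Atf3, also on the immediate early list, at 13.6 and 3.26 (4.18-fold, 3.44 to 5.10). Of the arm's other outputs, Atf4, Ddit3 and Asns were detected and did not share this gap. Atf4, the arm's central factor, was at 38.0 and 34.3 RPKM, and Ddit3 was slightly higher in pool 2. Asns, which makes asparagine, was at 2.52 and 3.85, at least 1.5-fold higher in pool 2. Trib3 was under 1 RPKM in both pools and Chac1 was listed at 0 in both, too low to compare the pools. Whether activity of the arm differed between the pools was not tested. By the mean of the pools the highest gene of the list was Eif2ak1, a kinase that responds to haem, at 38.4 and 43.3 RPKM, although Ppp1r15a was above it in pool 1, and the adaptor gene Nck1 was at 25.7 and 39.9.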

How the data were processed

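RNA of sorted ILC2 progenitors was measured in 2 libraries of 1 group. The authors deposited RPKM values (reads scaled to gene length and library total) for 27179 Entrez gene IDs per library. Per the submitters' processing notes, featureCounts, edgeR 3.8.2, edgeR 3.22.0, CASAVA 1.8.2 and mm10 were used, with no role stated. The aligner, the strand setting, the read length and the treatment of reads with several matches are unknown: not given in the sources used here. Neither column heading carries its own sample's code (0 of 2 matched), and files were taken as deposited. Should the headings hold instead, the names of the pools swap in all that is reported.

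Library totals of 20216146 and 19834586 reads were recovered from the steps between RPKM values. With them, all 17233 genes above 0 in either library gave whole reads for a whole length between 20 and 130000 bases, within the rounding of the files. Of 1000 genes, 1.5% did so after a shift of the totals by 1 in 1000. The smallest such length was multiplied where that brought it within 10% of the annotated exon length. The reads then sum to 104% of either total, so some genes were multiplied too far, and intervals built on the reads may be too narrow. Checked on simulated data, both totals were found, and 83.7% of 1500 genes gave their exact reads. The rest gave a divisor of them, so the check shows no case of reads multiplied too far. The step that multiplies lengths was not tested. Intervals are 95% exact binomial (Clopper-Pearson) intervals of the ratio of reads and cover counting error only.

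Detected means 1 RPKM or more in both pools. Levels and log2 ratios use log2(RPKM + 0.1), so differences of low genes are understated, and folds with an interval come from the reads. No count model was run, because the values are RPKM and there is 1 group. Nothing says whether the pools were sorted or sequenced together. Alternatives were TPM scaling, centring, other pseudocounts and thresholds, CPM from the recovered reads and each pool alone. Transcript sequence, exons and promoters came from GENCODE M21 and RefSeq on GRCm38, the build mm10 names. Computation used Python 3.11.15, pandas 2.3.3, scipy 1.17.1 and matplotlib 3.10.9.

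The 35 genes and all lists were chosen with earlier results of these data known. All 35 are named. Of each further list, the highest and lowest gene and every detected gene at least 2-fold apart are named, and any other gene was picked once its value was known.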

Additional observations from a re-analysis of the deposited data

How the results depend on the processing

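No paired analysis was possible because the series holds 1 group, and no test between groups was made. Against all detected genes, the median level of the 35 genes, 1.01 (log2), was 0.92 to 1.09 with either pool alone, and 1.25 without the 9 genes that share 20% or more of their windows, an alternative chosen after seeing the data. The cytosolic median of -0.16 turned to 0.62 with detected genes only, which leaves out the 2 lowest, and to 1.27 without genes of shared sequence (also chosen after seeing the data). The ER median of 2.004 was 2.01 with TPM and with a pseudocount of 0.01, 1.94 with a pseudocount of 1, and 1.9953 to 1.9998 with either pool alone. The mitochondrial and regulator medians moved by less than the gap between the pools under TPM, the other pseudocounts and either pool alone, and leaving out genes of shared sequence was not run for them. The number of detected genes was 29 to 33 over thresholds of 0.5 and 5 RPKM, TPM and single pools, and the number 2-fold apart stayed 0 under each scaling, pseudocount and threshold tried. After centring on the median ratio of all detected genes, the genes' median ratio went from 0.03 to -0.01, Edem1 and Eif2ak3 (0.01 to -0.03) changed sides, and the split of 18 to 15 toward pool 2 became 16 to 17. Depth limits Hspa1a, Hspa1b and Hspb1, with at most 89 reads a library.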

Other observations

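The whole J protein family was chosen after the data were seen and taken by symbol (Dnaja, Dnajb and Dnajc with a number). It had 45 rows in the files, of which 39 were detected (40.5% of all genes were). Dnajc8, a J protein of the spliceosome, at 87.5 and 80.8 RPKM, and Dnaja2, at 79.97 and 86.7, were the highest by mean level, and each led in 1 pool. Dnajc6 and Dnajb14 were 1.5-fold or more apart, at 2.72 and 5.50 RPKM and at 4.89 and 2.72 RPKM in pools 1 and 2, which makes 2 of 39 where 8.45% of all detected genes were that far apart. Among 8 rows taken only by the symbol Hspb with a number, 2 were detected, Hspb11 at 22.8 and 21.3 RPKM and Hspb6 at 2.05 and 1.41. Another 3 were listed at 0 in both pools. All 6 Bag genes were detected, from Bag2 at 4.71 ± 1.27 RPKM to Bag1 at 96.3 ± 5.30.

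Proteasome subunit genes (Psma, Psmb, Psmc and Psmd), which degrade what chaperones cannot fold, were also looked at after the data were seen. Of 39 rows, 37 were detected (40.5% of all genes in the files were), with a median of 70.2 RPKM. None was 1.5-fold apart, where 8.45% of all detected genes were, and 4.66% of those at 5 RPKM or more in both pools. A count of 0 is close to backgrounds this low. The immunoproteasome subunit Psmb8 was the highest, at 510.3 RPKM in pool 1 and 514 in pool 2, ahead of Psmb4 at 279 and 274. Psmb10 and Psmb9, the other immunoproteasome subunits, were at 246 and 242 RPKM and at 209 and 218. Of the constitutive subunits that Psmb8, Psmb9 and Psmb10 replace, Psmb5 was at 59.0 and 59.5 RPKM, Psmb6 at 122 and 115, and Psmb7 at 120.2 and 129.7. Psmb11, a subunit of the thymus, was listed at 0 in both pools.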
